A study of Mus musculus with 11 samples.

Results

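The baseline transcriptome of E15.5 livers that carry intact Casp8 was described from 5 of the 11 libraries of the series, namely the 3 livers labelled WT and the 2 labelled Tnfr1 KO (Tnfr1-/-). Members were chosen by the genotype label alone. The other 6 livers, 3 Casp8-/- Mlkl-/- and 3 Casp8-/- Tnfr1-/-, were used for a single comparison. Every sample was RNA from the liver of 1 untreated mouse embryo on a C57BL/6N background, all were taken at E15.5, and the study used these libraries to ask whether interferon-stimulated genes are raised in fetal livers that lack both caspase-8 and the TNF receptor TNFR1. Tnfr1-/- embryos lack TNFR1 in every cell from conception and still carry Casp8 and Mlkl, so neither of the 2 genotypes described here lacks caspase-8.

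At mid-gestation the mouse liver is the main site of blood formation. Definitive erythroblasts, which derive from stem and progenitor cells that have settled in the liver, multiply around central macrophages, fill with hemoglobin and expel their nuclei. Hepatoblasts and immature hepatocytes make up most of the remaining tissue and secrete albumin, alpha-fetoprotein and apolipoproteins into the plasma, while many enzymes of adult hepatocytes are switched on only around birth. Sinusoidal endothelium, stromal cells, granulocyte precursors, megakaryocytes and early B cells are present in smaller numbers.

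The libraries held 23129212 to 35819339 counted reads (median 24791709), and 12261 to 12435 genes per liver reached 1 RPKM, that is, a read count scaled by exon length and by the read total of the liver. Chi-square statistics of 6.45 to 24.4 per degree of freedom between pairs of livers gave no sign of a library deposited more than once. All 5 livers had the Y-linked transcript Ddx3y at 12.01 to 17.8 RPKM, and Xist was at most 0.0266 RPKM in them. Of the defining markers of the labelled tissue, Alb, Afp, Hbb-bs, Gata1 and Kit were all detected in every liver. Tnfrsf1a, which encodes TNFR1, was counted at 54.7, 55.2 and 48.5 CPM (counts scaled to a common library size) in the WT livers and at 51.7 and 52.1 CPM in the Tnfr1-/- livers. The groups overlapped, so a count over the whole gene did not check the Tnfr1-/- label. Casp8 was counted at 28.5 to 35.2 CPM in the 5 livers, when these were scaled together.

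Hemoglobin and plasma protein transcripts headed the ranking by level. The highest gene was Hbb-bs, an adult beta-globin, at 35446 ± 4795 RPKM (SD, n = 5), followed by the second adult beta-globin Hbb-bt at 15440 ± 2345 RPKM, Alb (albumin) at 13640 ± 1691 RPKM, Afp (alpha-fetoprotein, the albumin relative of fetal plasma) at 10103 ± 336 RPKM, and the adult alpha-globins Hba-a1 at 8464 ± 1426 RPKM and Hba-a2 at 5832 ± 1029 RPKM. The 30 highest genes were the same 30 when any 1 of the 5 livers was left out. Mitochondrially encoded genes came next, with mt-Cytb at 3773 ± 571 RPKM and mt-Nd1 at 3341 ± 683 RPKM. The imprinted fetal RNA H19 followed at 3281 ± 276 RPKM and the peroxide-removing enzyme Gpx1 at 2174 ± 286 RPKM. Of the 30 highest genes, 8 were on the erythroid lists, 8 on the hepatocyte lists and 14 on neither. Those on neither list included 5 mitochondrial genes, H19 and its neighbour Igf2 (852 ± 69.6 RPKM), the metal-binding Mt2, the iron-storing Fth1, the surface protein Cd24a, the ribosomal protein gene Rpl8, Gpx1, and Mir6236. The last is a locus of only 123 bases, and its 1373 RPKM corresponded to 0.0209% of the counted reads.

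**Figure D1:**
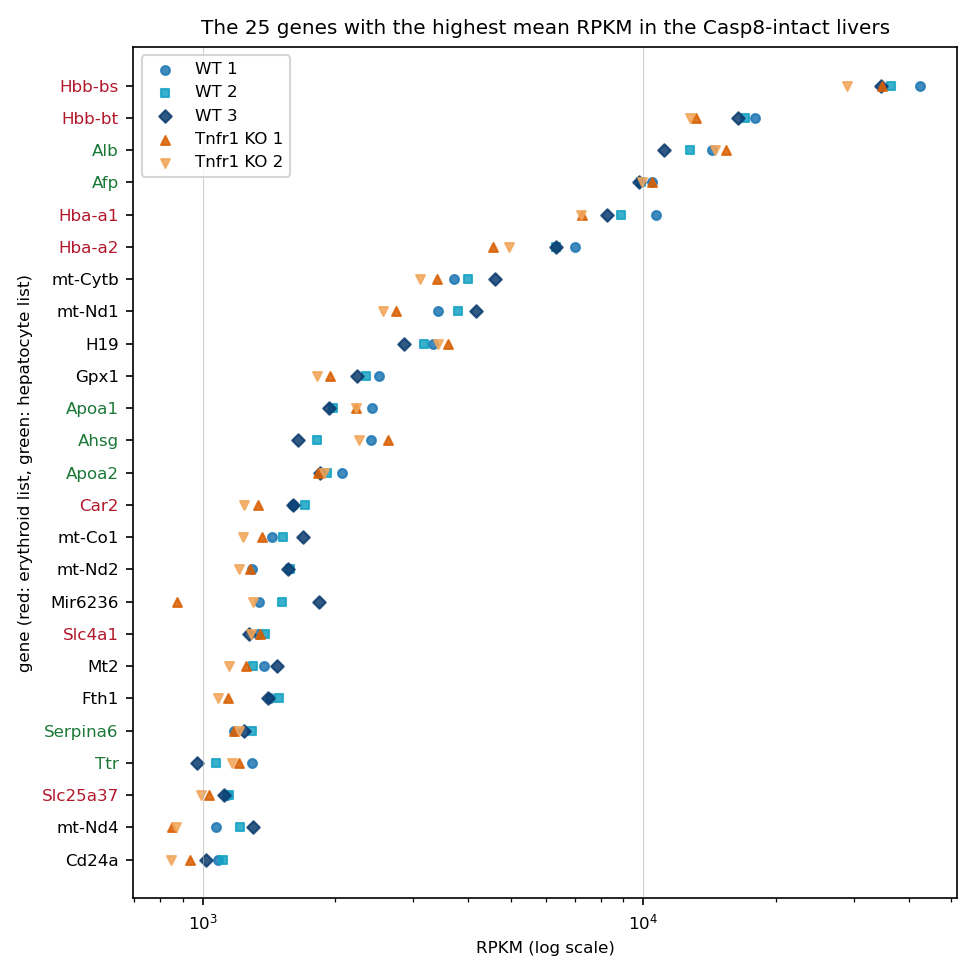
RPKM of the 25 genes with the highest mean, 1 row per gene and 1 symbol per liver, on a logarithmic axis. The 4 adult globin genes, Alb and Afp lie between 4560 and 42365 RPKM and have the 6 highest means; mt-Cytb, at up to 4604 RPKM, reaches the lowest Hba-a2 value.

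The transcriptome was concentrated in few genes. In total, 25 genes had a mean of at least 1000 RPKM, 343 of at least 100 RPKM and 12329 of at least 1 RPKM. The 10 genes with the most reads in a liver took 13.4 to 15.2% of its counted reads, and 701 to 780 genes were needed to reach 50% of them. Per length, the 10 highest genes took 27.2 to 30.96% of the summed RPKM.

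The bases before the annotated starts of the 4 globin and 2 plasma protein genes below are shown because these genes carry the ranking, and because the embryonic globin Hbb-y, taken up further on, lies in the same cluster as Hbb-bs and Hbb-bt but was lower by more than 100 times. Each sequence is 250 bases from RefSeq on GRCm38.p6, read 5′ to 3′ on the strand of the gene and ending at the base before the start. The motifs were picked after the sequences were read. Capitals mark AGATAA (a form of the GATA motif), CCAAT (the CCAAT box) and CACCC (the CACCC box). They also mark TATAA (the core of the TATA box) and GTTAAT (the core of an HNF1 half-site). Each was searched on either strand, and neighbouring matches can run together.
Hbb-bs: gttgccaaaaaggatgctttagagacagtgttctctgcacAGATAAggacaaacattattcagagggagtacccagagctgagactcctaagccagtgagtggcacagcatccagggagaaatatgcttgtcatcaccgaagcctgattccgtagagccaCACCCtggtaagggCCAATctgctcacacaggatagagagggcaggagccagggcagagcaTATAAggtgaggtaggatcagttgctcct
Hbb-bt: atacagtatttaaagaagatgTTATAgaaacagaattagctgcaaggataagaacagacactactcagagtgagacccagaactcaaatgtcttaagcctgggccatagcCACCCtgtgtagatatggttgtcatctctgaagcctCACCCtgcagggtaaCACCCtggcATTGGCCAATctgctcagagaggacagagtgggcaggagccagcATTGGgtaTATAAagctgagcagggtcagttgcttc
Hbb-y: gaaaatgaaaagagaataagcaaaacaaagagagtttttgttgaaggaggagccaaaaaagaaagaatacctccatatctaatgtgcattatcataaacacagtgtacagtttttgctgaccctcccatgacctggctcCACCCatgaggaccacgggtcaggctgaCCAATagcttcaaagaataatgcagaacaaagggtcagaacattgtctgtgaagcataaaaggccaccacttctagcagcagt
Hba-a1: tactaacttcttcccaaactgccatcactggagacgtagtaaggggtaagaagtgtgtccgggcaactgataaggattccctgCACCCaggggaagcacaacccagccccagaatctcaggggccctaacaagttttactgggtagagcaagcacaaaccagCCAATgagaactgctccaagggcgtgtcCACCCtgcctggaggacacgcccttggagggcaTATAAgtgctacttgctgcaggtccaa
Alb: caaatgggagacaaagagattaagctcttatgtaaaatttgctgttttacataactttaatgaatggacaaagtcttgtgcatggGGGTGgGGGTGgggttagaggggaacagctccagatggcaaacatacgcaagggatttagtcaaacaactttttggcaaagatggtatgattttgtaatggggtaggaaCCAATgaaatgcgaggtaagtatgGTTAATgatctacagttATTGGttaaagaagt
Afp: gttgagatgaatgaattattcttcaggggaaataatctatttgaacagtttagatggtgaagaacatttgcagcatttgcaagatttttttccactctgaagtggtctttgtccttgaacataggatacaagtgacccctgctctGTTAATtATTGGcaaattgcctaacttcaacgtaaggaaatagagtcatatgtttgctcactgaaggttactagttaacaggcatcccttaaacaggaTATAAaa
The stretches lie at chr7:103827929-103828178 (Hbb-bs, minus strand), chr7:103813924-103814173 (Hbb-bt, minus strand), chr7:103853208-103853457 (Hbb-y, minus strand), chr11:32283422-32283671 (Hba-a1, plus strand), chr5:90460620-90460869 (Alb, plus strand) and chr5:90490464-90490713 (Afp, plus strand). CCAAT was found in all 6 stretches, and 33.8% of 32851 RefSeq windows of this length hold it. CACCC was found in each of them except Afp, against 52.0% of windows. TATAA began at -29 in Hbb-bs, -28 in Hbb-bt, -27 in Hba-a1 and -7 in Afp, counted from the annotated start. Hbb-bt also held it on the other strand, from -229. It was not found in Hbb-y or Alb, and 22.8% of windows hold it. GTTAAT was found in Alb and Afp and in none of the 4 globin genes, against 6.43% of windows. AGATAA was found in Hbb-bs alone, against 9.99% of windows. Other forms of the GATA motif were not searched and are not marked. An example is TGATAA, which the Hba-a1 stretch holds and the Hbb-y stretch holds on the other strand. These matches describe letters and not bound sites. Hba-a1 and Hba-a2 share 297 identical bases in a row around their starts, so only the former is printed.

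The 4 adult globin genes differed less between livers than the embryonic ones. Hbb-bs was at 42365, 36491 and 34650 RPKM in the WT livers and at 34751 and 28973 RPKM in the Tnfr1-/- livers, so that the genotypes overlapped. Hba-a1 was at 10679, 8884 and 8283 RPKM in the WT livers and at 7268 and 7204 RPKM in the Tnfr1-/- livers. Here both Tnfr1-/- livers lay below all WT livers, as they did for 6 of the 9 globin genes with a mean count of at least 50, against 21.4% of the 12916 genes at that depth. With 2 livers against 3 an exact two-sided permutation test on a single gene cannot go below p = 0.2. The fits across all genes are given with the genotype comparison further on. Of the 4 adult genes, between 53.2% (Hbb-bs) and 89.3% (Hba-a2) of all 50-base stretches recur in another annotated gene. Since only uniquely mapped reads were counted and the labels give reads of 50 bases, their levels are lower limits and the split within each pair is uncertain.

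Embryonic globins were detected at low levels. Hbb-y, the epsilon-type beta-globin of primitive, yolk-sac-derived red cells, was at 64.2, 74.0 and 154 RPKM in the WT livers and at 56.1 and 42.3 RPKM in the Tnfr1-/- livers. The third WT liver stood alone, more than 2 times above the next. Hba-x, the embryonic zeta-type alpha-globin, was also highest in that liver, at 32.4 RPKM against 16.6 to 26.5 RPKM in the other 4. Hbb-bh1, another embryonic beta-type globin, did not share this pattern, with 64.2, 62.0 and 59.4 RPKM in the WT livers and 36.4 and 35.2 RPKM in the Tnfr1-/- livers. The theta-like genes Hbq1b and Hbq1a were at 29.7 ± 2.57 and 2.77 ± 0.678 RPKM, and Hbb-bh2 at 0.108 ± 0.0656 RPKM. No 50-base stretch of Hbb-y, Hba-x or Hbb-bh1 recurs in another gene.

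**Figure D2:**
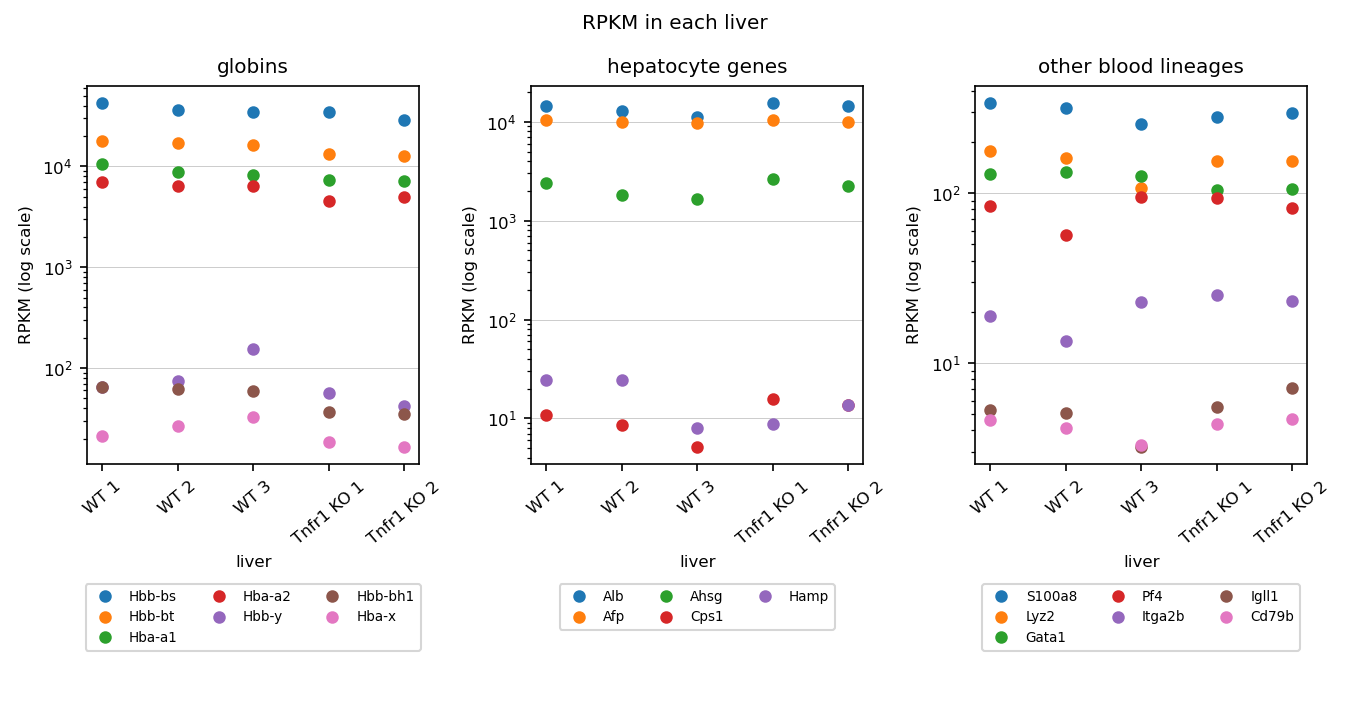
RPKM in each of the 5 livers for 7 globin genes (left), 5 hepatocyte genes (middle) and 7 genes of other blood lineages (right), on logarithmic axes, with 1 point per liver and gene. Hbb-y is highest and Cps1, Lyz2 and Igll1 are lowest in the third WT liver.

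Genes of heme synthesis and iron supply were high and even. All 13 exceeded 28 RPKM, with a median of 370 RPKM. The mitochondrial iron importer Slc25a37 was at 1087 ± 69.5 RPKM, Alas2, which starts heme synthesis in erythroid cells, at 863 ± 30.8 RPKM, Alad, the next enzyme of the pathway, at 428 ± 43.4 RPKM, Fech, which inserts the iron, at 426 ± 21.4 RPKM and the transferrin receptor Tfrc at 423 ± 20.4 RPKM. The lowest was the ferrireductase Steap3 at 28.2 ± 3.52 RPKM. The median biological CV of the list, the CV between livers after removal of counting error, was 0.0526, against 0.0735 over all genes with a mean count of at least 50.

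Red cell membrane and cytosol genes had a median of 149 RPKM over the 20 members matched by name. Car2, a carbonic anhydrase, was at 1498 ± 199 RPKM, the anion exchanger Slc4a1 (band 3) at 1326 ± 43.8 RPKM, the peroxiredoxin Prdx2 at 328 ± 41.3 RPKM and the reductase Blvrb at 319 ± 41.6 RPKM. The lowest was Car1, a second carbonic anhydrase, at 12.4, 10.4 and 23.2 RPKM in the WT livers and at 12.3 and 12.1 RPKM in the Tnfr1-/- livers. It was again the third WT liver that stood above the other 4. The erythroid transcription factors were lower than their targets but well detected, with Klf1 at 163 ± 19.7, Nfe2 at 139 ± 9.62, Tal1 at 125 ± 8.22 and Gata1 at 119 ± 13.5 RPKM. The erythropoietin receptor Epor was at 114 ± 11.4 RPKM and the lowest member, Gfi1b, at 70.4 ± 4.32 RPKM. Gata1 was at 129, 132 and 126 RPKM in the WT livers and at 104 and 106 RPKM in the Tnfr1-/- livers, without overlap. By CPM, 21.4% of the 12916 genes with a mean count of at least 50 were lower in this way.

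Secreted hepatocyte proteins came next to the globins, and all 35 genes of the list exceeded 1 RPKM. Alb was at 14304, 12758 and 11150 RPKM in the WT livers and at 15418 and 14568 RPKM in the Tnfr1-/- livers. Both Tnfr1-/- livers lay above all WT livers, as they did by CPM for 18.2% of the 12916 genes with a mean count of at least 50. Afp, at 9794 to 10479 RPKM, overlapped. Apoa1 and Apoa2, the main proteins of high-density lipoprotein, were at 2158 ± 202 and 1908 ± 94.6 RPKM, the fetal plasma glycoprotein Ahsg (fetuin-A) at 2156 ± 414 RPKM, the cortisol carrier Serpina6 at 1221 ± 48.1 RPKM, the thyroxine carrier Ttr at 1142 ± 124 RPKM and Ambp at 742 ± 35.7 RPKM. Serpina6 had one of the smallest spreads among them, with a biological CV of 0.0196, and Ahsg one of the larger ones, with 0.217. The lowest member was Apoc3 at 1.76 ± 0.228 RPKM, although none of its 50-base stretches recurs in another gene.

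Hepatocyte enzymes were far lower than the secreted proteins, with a median of 12.9 RPKM over 22 genes. The fatty acid carrier Fabp1 was at 192 ± 25.2 RPKM and Hpd, an enzyme of tyrosine breakdown, at 35.1 ± 2.84 RPKM. The lowest was the tryptophan-degrading Tdo2 at 0.00892 ± 0.00668 RPKM, and 6 of the 22 genes had a mean under 1 RPKM. Other enzymes of the mature liver near the bottom, named after their values were seen, were G6pc, the last step of glucose release, at 0.0174 ± 0.00601 RPKM, Cyp2e1 at 0.355 ± 0.114 RPKM and Tat at 0.427 ± 0.0937 RPKM. Hepatoblast and hepatocyte regulators were led by the surface proteins Dlk1 (185 ± 16.1 RPKM) and Gpc3 (173 ± 3.28 RPKM) and the transcription factors Hnf4a (42.0 ± 2.23 RPKM), Cebpa (19.8 ± 1.41 RPKM) and Foxa3 (17.2 ± 1.06 RPKM). The lowest was Onecut1 at 0.599 ± 0.156 RPKM.

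Among myeloid genes, those of neutrophil granules had the higher median, 44.6 RPKM over 16 genes against 17.0447 RPKM over 24 macrophage and monocyte genes, while the latter took the larger share of counted reads, 0.170 ± 0.0124% against 0.155 ± 0.0190% (SD, n = 5). S100a9 and S100a8, the subunits of calprotectin, were at 456 ± 62.1 and 297 ± 32.4 RPKM, the granule proteins Ngp and Mpo at 115 ± 13.9 and 115 ± 15.8 RPKM and Camp at 79.5 ± 13.2 RPKM. The lowest was Chil3 at 1.30 ± 0.636 RPKM. The macrophage and monocyte list was led by lysozyme Lyz2 at 150 ± 25.7 RPKM, the iron exporter Slc40a1 at 73.8 ± 3.45 RPKM, the macrophage-secreted Cd5l at 60.1 ± 4.99 RPKM, the signalling adaptor Tyrobp at 53.1 ± 2.21 RPKM and the complement subunit C1qb at 52.1 ± 4.40 RPKM. The lowest was Lyz1 at 0.153 ± 0.1 RPKM. Slc40a1 is also made by other cells of the fetal liver, so its level is not specific to macrophages.

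Endothelial genes had a median of only 4.93 RPKM over 26 members. Ehd3, Lyve1 and Oit3, which mark liver sinusoids, were at 22.6 ± 1.23, 20.8 ± 1.61 and 17.1 ± 1.32 RPKM, and Eng and the junction protein Cdh5, which mark endothelium in general, at 16.5 ± 1.35 and 15.01 ± 1.49 RPKM. The lowest was Sox17 at 0.680 ± 0.118 RPKM. None of the 26 had a biological CV over 0.25, which is near the 3.1% of all genes with a mean count of at least 50. Their median biological CV was 0.0865, against 0.0735 over all those genes.

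Stem and progenitor genes had a median of 2.46 RPKM over 23 members, and their highest members are shared with the erythroid lineage. The transcription factors Lmo2 (155 ± 12.9 RPKM), Lyl1 (51.2 ± 3.74 RPKM), Ikzf1 (38.5 ± 1.83 RPKM) and Myb (16.6 ± 2.22 RPKM) led. The stem cell factor receptor Kit, which early erythroid and mast cells also carry, was at 11.6, 12.1 and 14.6 RPKM in the WT livers and at 14.4 and 14.2 RPKM in the Tnfr1-/- livers. The lowest was Hoxa9 at 0.155 ± 0.0427 RPKM.

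Summed over their lists, erythroid and hepatocyte genes took nearly equal shares of the reads. The 50 erythroid genes took 9.82 ± 0.683% of the counted reads and the 70 hepatocyte genes 9.93 ± 0.974% (SD, n = 5). The 40 myeloid genes took 0.324 ± 0.0305%, the 23 progenitor genes 0.116 ± 0.00422% and the 26 endothelial genes 0.105 ± 0.00439%. Because globin transcripts are short, the picture differed per length: erythroid genes then took 21.8 ± 1.65% of the summed RPKM, of which the globins held 18.5 ± 1.65%, and hepatocyte genes 11.7 ± 1.29%. Without the globins in both sum and total, erythroid genes took 4.83 ± 0.124% of the counted reads, with a smaller spread between livers. The lists are samples of each cell type's genes, in whole-tissue RNA, in which fewer cells of a type and less RNA per cell cannot be told apart, and a share is therefore no cell count.

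The shares differed in order between livers. The erythroid share was 10.7, 10.02 and 9.96% in the WT livers and 9.52 and 8.88% in the Tnfr1-/- livers. The hepatocyte share was 10.2, 9.13 and 8.70% in the WT livers and 10.98 and 10.6% in the Tnfr1-/- livers. By this share the genotypes did not overlap in either class, and an exact permutation test of 2 livers against 3 cannot go below p = 0.2. The hepatocyte separation depended on the scaling: on TMM-scaled CPM the summed level was 104786 in the first WT liver and 102861 in the second Tnfr1-/- liver, so that the genotypes overlapped, whereas the erythroid sums, at 98333 or more in WT and 96904 or less in Tnfr1-/- livers, did not. The myeloid share was highest in the first WT liver (0.361%) and lowest in the third (0.277%), and the Tnfr1-/- livers (0.329 and 0.334%) lay between. Progenitor shares ranged from 0.111 to 0.122% and endothelial shares from 0.0992 to 0.111%, with both genotypes overlapping.

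**Figure D3:**
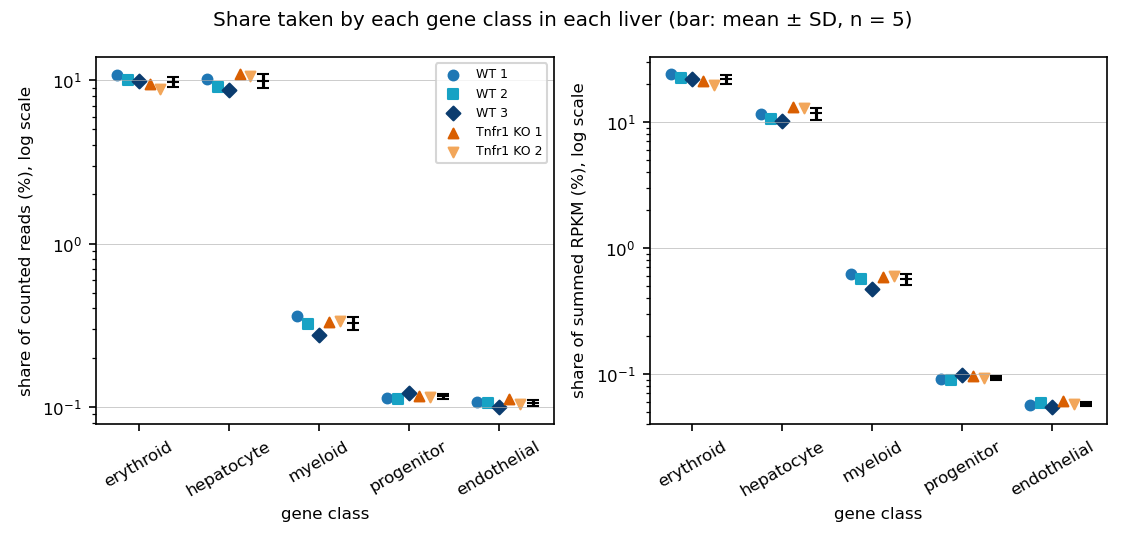
Share of counted reads (left) and of summed RPKM (right) taken by the genes of each class, on logarithmic axes, with 1 symbol per liver and the mean ± SD over the 5 livers beside them. Erythroid and hepatocyte genes are level by counted reads (9.82% and 9.93%) and apart per length (21.8% and 11.7%).

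Lists for other populations differed in level. The megakaryocyte and stromal lists had medians of 13.3 and 15.7 RPKM, above those of the endothelial and progenitor genes. Below these lay B-lineage genes (1.03 RPKM), mast cell, basophil and eosinophil genes (0.638 RPKM), mesothelial genes (1.53 RPKM) and bile duct genes (0.365 RPKM). Megakaryocyte genes were led by the platelet chemokines Ppbp (93.99 ± 22.1 RPKM) and Pf4 (81.8 ± 15.01 RPKM), B-lineage genes by the surrogate light chain Igll1 (5.23 ± 1.39 RPKM) and the receptor subunit Cd79b (4.20 ± 0.563 RPKM), and mast cell, basophil and eosinophil genes by Prg2 (11.8 ± 3.39 RPKM). Stromal genes were led by the collagens Col3a1 (54.3 ± 9.64 RPKM), Col1a1 (40.2 ± 8.62 RPKM) and Col1a2 (39.6 ± 8.29 RPKM). Mesothelial genes were led by the keratins Krt18 (43.1 ± 2.10 RPKM) and Krt8 (9.94 ± 0.791 RPKM), both of which hepatocytes also make, and bile duct genes by Spp1 (2.44 ± 1.17 RPKM).

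Most markers of neighbouring organs were under 1 RPKM. Ins1 and Gcg of the pancreas, Cdx2, Gkn1, Gkn2 and Tff1 of the gut and stomach, and Cyp21a1, Umod and Slc34a1 of adrenal and kidney were listed at 0 in all 5 livers. Exceptions, named after their values were seen, were Hsd3b1 of the adrenal and kidney list at 15.004 ± 1.32 RPKM and Fabp2 and Muc13 of the intestine and stomach list at 6.47 ± 1.38 and 1.36 ± 0.309 RPKM. Of the pancreas list, 2 of 10 genes exceeded a mean of 1 RPKM, namely Cela1 at 6.87 ± 0.825 RPKM and Cpa1. Cpa1, a pancreatic carboxypeptidase, was at 0.644, 2.50 and 0.650 RPKM in the WT livers and at 0.347 and 2.15 RPKM in the Tnfr1-/- livers, so it was high in the second liver of each genotype. Of the muscle list, 4 of 12 genes exceeded 1 RPKM, led by Mylpf at 13.1 ± 1.24 RPKM.

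Several genes that every cell uses were listed near 0, and this limits the ranking. Gapdh, a glycolytic enzyme that is usually among the highest transcripts, was at 0.0466 ± 0.0442 RPKM, Ppia at 1.38 ± 0.275 RPKM and Pgk1 at 1.32 ± 0.342 RPKM, whereas Actb was at 466 ± 52.8 RPKM and Eef1a1 at 192 ± 12.2 RPKM. Of their 50-base stretches, 25.1% (Gapdh), 17.3% (Ppia), 53.9% (Pgk1), 9.12% (Actb) and 40.4% (Eef1a1) recur exactly in another annotated gene; copies that differ by a few bases were not searched. The 80 ribosomal protein genes ranged from 0 to 916 RPKM, and 51 of them were under 10 RPKM. Among the 13 mitochondrially encoded protein genes the 6 under 10 RPKM had a median shared portion of 99.2%, for example mt-Co2 with 100% at 5.45 ± 0.792 RPKM, and the 6 over 100 RPKM had a median of 7.90%. An exception was mt-Atp8, at 0.871 RPKM with no shared stretch. Over all protein-coding genes, 49.8% of the 8470 with no shared stretch had a mean of at least 1 RPKM, against 4.84% of the 1220 with more than 75% shared. Low values of multi-copy genes therefore cannot be read as low expression, and shares of mitochondrial and ribosomal genes (1.72% and 0.536% of the counted reads) are lower limits.

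Most genes varied little between the 5 livers. The biological CV had a median of 0.0735 over 12916 genes with a mean count of at least 50, and 5% of these genes exceeded 0.213. Only 17 genes (0.132%) exceeded 0.5 and 401 (3.1%) exceeded 0.25. The median fell with depth, from 0.134 at a mean count of 50 to 100 to 0.0611 at 1000 to 10000. Of the genes over 0.5, 11 had a mean count of 50 to 100, so the most variable genes are also those with few reads behind them.

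**Figure D4:**
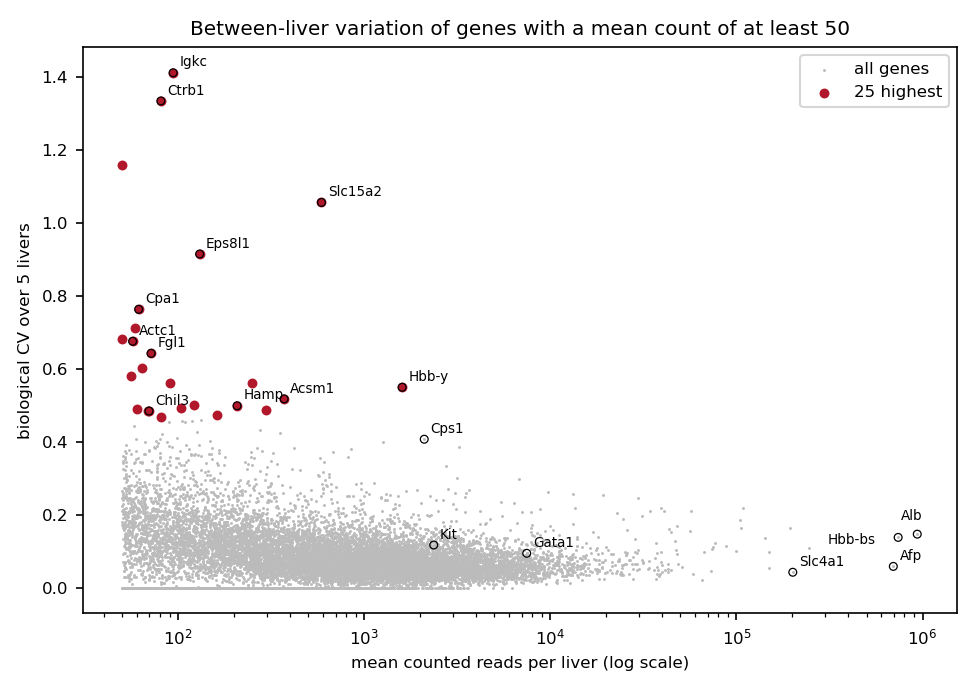
Biological CV over the 5 livers against the mean number of counted reads per liver (logarithmic axis) for 12916 genes, with the 25 highest in red. Hbb-y and Cps1 vary far more than other genes at their depth, while Afp and Slc4a1 lie near the bottom.

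The most variable gene was Igkc, the constant region of the kappa light chain, with a biological CV of 1.41. It was at 12.8, 4.07 and 0.244 CPM in the WT livers and at 0.7102 and 0.862 CPM in the Tnfr1-/- livers, so the first WT liver led by more than 3 times. Genes of early B cells did not follow it, since the list was highest in the second Tnfr1-/- liver. Ctrb1, a pancreatic chymotrypsinogen, was at 8.56 and 7.80 CPM in the second liver of each genotype and at 0 to 0.239 CPM in the other 3 (biological CV 1.33). Cpa1 had the same 2 livers highest, at 4.76 and 4.23 CPM against 0.7102 to 1.27 CPM. Both genes belong to the exocrine pancreas, which lies next to the liver in the embryo, and their part in other differences was not tested.

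Slc15a2, a peptide transporter, was the most variable gene with a mean count over 500. It was at 3.02, 0.649 and 56.9 CPM in the WT livers and at 26.6 and 20.03 CPM in the Tnfr1-/- livers, with 87.7 times between the lowest and the highest liver (biological CV 1.06). Its livers fell into a pair of low WT livers and 3 high ones, so the genotype did not order them. It lies on chromosome 16 at 36750177 to 36784962 of GRCm38, and 0.534% of its 50-base stretches recur elsewhere. The processed pseudogene Gm9522 had the same 2 livers lowest, at 0.0398 and 0 CPM, against 1.72 to 5.24 CPM in the others. Eps8l1, a relative of an actin-regulating adaptor, was at 2.86, 3.16 and 0.244 CPM in the WT livers and at 5.71 and 11.7 CPM in the Tnfr1-/- livers (biological CV 0.915). Capn11, a calpain protease, was at 0 CPM in the first Tnfr1-/- liver and at 1.80 to 4.75 CPM in the others. The liver without a Capn11 read has the deepest library of the 5.

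The other members of the 25 were less extreme. Slc7a3, an amino acid transporter, Actc1, the cardiac actin, and the pseudogenes Gm12906, Gm15148 and Gm8744 had their highest value in the third WT liver, as had Hbb-y. Fgl1, Acsm1, Hamp, Chil3, Ltbp2, C6 and the pseudogene Gm7199 had their lowest value there. Hamp, the iron hormone hepcidin, was at 12.5, 12.2 and 3.98 CPM in the WT livers and at 4.66 and 6.98 CPM in the Tnfr1-/- livers. The complement component C6 closed the list with a biological CV of 0.467, and Spp1, at 0.459, lay just outside it. The lincRNAs Gm32540 and Gm42047, the coding gene 4933411K16Rik, the lymphocyte receptor Cd226 and the glutathione-degrading Chac1 were highest in a Tnfr1-/- liver. The genotypes overlapped for Gm42047 and for none of the other 4. For example, 4933411K16Rik was at 2.23 to 2.64 CPM in WT livers and at 4.90 and 6.28 CPM in Tnfr1-/- livers. Both Tnfr1-/- livers lay above all WT livers for 18.2% of 12916 genes. Grouping genes by a highest value in a Tnfr1-/- liver favours such a separation, so it says little about genotype. Deviations from the mean of each genotype gave these genes lower biological CVs. They were 0.432 for Gm42047, 0.339 for Gm32540, 0.294 for Chac1, 0.284 for Cd226 and 0.129 for 4933411K16Rik. The median over all genes was then 0.0542, and 18 of the 25 genes remained among the 25 most variable. 4933411K16Rik and Cd226 were also called as higher when only the 5 livers entered the fit, described further on. Without the third WT liver, the CV of Hbb-y dropped to 0.208 and that of Gm12906 to 0.104, and 11 of the 25 genes remained among the 25 most variable.

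**Figure D5:**
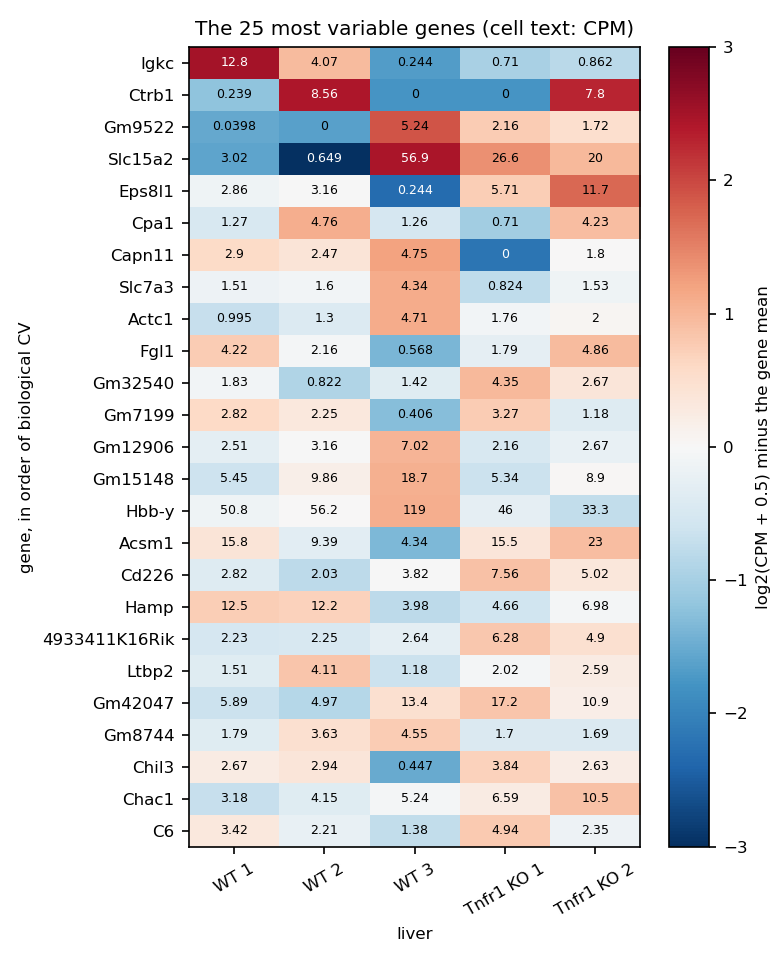
The 25 genes with the highest biological CV, in that order, by liver, where the color gives log2(CPM + 0.5) minus the mean of the gene and the cell text the CPM. The third WT liver is the lowest or the highest of the 5 for most of these genes, and Ctrb1 and Cpa1 are high in the second liver of each genotype.

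Members of some lists moved together between livers. Megakaryocyte genes were lowest in the second WT liver for 13 of 13 genes, against 18.3% of all genes with a mean count of at least 50, and highest in the first Tnfr1-/- liver for 11 of 13, against 21.5%. Itga2b, the platelet integrin subunit, was at 18.9, 13.4 and 22.8 RPKM in the WT livers and at 24.9 and 23.2 RPKM in the Tnfr1-/- livers. The summed level of the list spanned 1.996 times between livers, more than that of any of the 5 classes, and 6 of the 13 genes had a biological CV over 0.25. B-lineage genes were lowest in the third WT liver for 9 of 10 genes, against 23% of all genes, and Igll1 was at 5.27, 5.05 and 3.20 RPKM in the WT livers and at 5.50 and 7.11 RPKM in the Tnfr1-/- livers.

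The third WT liver was also the lowest for 14 of 16 granule genes, 18 of 22 macrophage and monocyte genes and 27 of 35 secreted hepatocyte proteins. Lyz2 was at 176, 160 and 107 RPKM in the WT livers and at 155 and 154 RPKM in the Tnfr1-/- livers. Cps1, the entry enzyme of the urea cycle, which was picked after its values were seen, was at 10.9, 8.59 and 5.16 RPKM in the WT livers and at 15.8 and 13.7 RPKM in the Tnfr1-/- livers. Mitochondrially encoded genes, in contrast, were highest in that liver for 9 of 10 genes, against 21.7% of all genes, at 2.11% of its counted reads and 1.47 to 1.82% in the other 4. The part of mitochondrial RNA content in these differences was not tested. The first WT liver was the highest for 13 of 16 granule genes and for 12 of 22 macrophage and monocyte genes, against 20.1% of all genes. Replication and mitosis genes were highest in the second WT liver for 12 of 20 genes, against 19.5% of all genes. The second Tnfr1-/- liver was the lowest for 17 of these 20 and for 28 of 49 erythroid genes, against 25.2% of all genes.

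Between the genotypes, no gene passed the test on all 11 livers. In edgeR's quasi-likelihood test on them, 0 of 17243 genes (0%) had an adjusted p under 0.05 for Tnfr1-/- against WT. An unadjusted p under 0.05 was found for 186 genes. DESeq2 and limma-voom, on the same 11 livers, also called 0 genes, with 281 and 210 at an unadjusted p under 0.05. Each count lies below the share of 0.05 that chance alone gives. The spread in these fits came from all 11 livers, including the Casp8-deficient ones. Without the third Casp8-/- Tnfr1-/- liver, 894 of 17027 genes had an unadjusted p under 0.05 in the edgeR test, and 0 were called. The absence of calls therefore does not show that the genotypes were alike. The smallest unadjusted p values belonged to Krt4, Gm10521, Gm43197, Cxcl10 and Ntng1, each with an adjusted p of 1. Krt4, an epithelial keratin, was at 0.0406 to 0.130 CPM in the WT livers and at 0.739 and 1.57 CPM in the Tnfr1-/- livers (log2 fold change 3.51 ± 0.764, SE). Cxcl10, an interferon-induced chemokine, was at 5.57, 5.41 and 4.95 CPM in the WT livers and at 3.61 and 2.63 CPM in the Tnfr1-/- livers (log2 fold change -0.77 ± 0.199). Without overlap, both Tnfr1-/- livers were higher for 18.2% and lower for 21.4% of 12916 genes. Hepatocyte genes were higher in this way for 28 of 65 genes and lower for 1, and erythroid genes higher for 5 and lower for 26 of 49.

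When only the 5 livers entered the fit, 138 of 16234 genes (0.85%) were higher and 121 (0.745%) lower in Tnfr1-/- livers. Among the list members called there were Hba-a2, Hbb-bh1, Steap3 and Blvrb of the erythroid lists, all lower, and Apob and Gys2 of the hepatocyte lists, both higher. These calls moved with gene length. The called genes that were higher had a median exonic length of 5176 bases and those that were lower 1289 bases, against 2960 bases over all genes tested. Over all 1654 genes under 1000 bases the median log2 fold change was -0.09, and over the 959 genes of at least 8000 bases it was 0.14. Both Tnfr1-/- livers showed this, with medians of -0.06 and -0.09 for the short genes and 0.14 and 0.12 for the long ones, and each WT liver against the other 2 stayed within -0.03 and 0.05 in these classes. Counted reads made up 78.6 and 78.3% of the read total behind the RPKM in the Tnfr1-/- livers and 80.7 to 83.4% in the WT livers. Whether the length trend, the counted share or the genotype goes with these calls cannot be told apart with 2 livers.

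The 5 livers were also set against the 6 Casp8-deficient ones. In the same edgeR fit, 368 of 17243 genes (2.13%) were higher and 24 (0.139%) lower in Casp8-deficient livers. Casp8 itself fell by 1.41 on the log2 scale (edgeR adjusted p = 0.00282), and, on the scaling of all 11 livers together, was at 27.7 to 33.9 CPM in the intact livers and 7.82 to 21.9 CPM in the deficient ones. Of the erythroid, hepatocyte and endothelial genes, 0 of 49, 0 of 69 and 0 of 26 were called by edgeR's quasi-likelihood test, with median log2 fold changes of -0.29, 0.22 and 0.42 against 0.01 over all genes. Some members were called under other settings: over the alternatives the smallest adjusted p was 2.2e-05 for Rhd and 5.9e-05 for Urod of the erythroid lists, 0.00027 for Hamp and 0.0051 for Pecam1, an endothelial junction protein, and the largest ranged from 0.327 to 0.45 for these 4 genes (edgeR, DESeq2 and limma-voom). In this edgeR fit, Gata1 had a log2 fold change of -0.58 ± 0.195 (adjusted p = 0.18), Alb of 0.35 ± 0.459 (adjusted p = 0.712) and Hbb-bs of 0.25 ± 0.438 (adjusted p = 0.778).

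A few calls fell in the other 2 classes, against 2.13% of all genes higher and 0.139% lower. With so few members called, they describe single genes and not the classes. Of the 40 myeloid genes 2 rose and 1 fell: Lcn2, an iron-binding granule protein, was at 48.99 to 78.2 CPM in intact and, overlapping, 46.9 to 3249 CPM in Casp8-deficient livers (log2 fold change 2.93 ± 0.557, adjusted p = 0.0271), the protease Mmp9 rose by 2.95 ± 0.630 (adjusted p = 0.0429), and Clec4f, a lectin of Kupffer cells, fell by 3.41 on the log2 scale (adjusted p = 0.0412), with 10.5 to 13.9 CPM in intact and 0.114 to 5.47 CPM in deficient livers. Of the 23 progenitor genes, Ly6a (Sca-1) rose by 2.19 ± 0.292 (adjusted p = 0.00418) and Spi1 (PU.1) by 1.02 ± 0.193 (adjusted p = 0.0269). Of these calls only that of Ly6a held under all 17 alternatives, and the others were lost under 6 to 8 of them. The summed endothelial share was 0.0992 to 0.111% in intact and 0.115 to 0.169% in Casp8-deficient livers, without overlap. This gap, from 0.111 to 0.115% of counted reads, is narrow, and whether it holds on TMM-scaled CPM was not tested. In Casp8-deficient livers the erythroid share spanned 6.28 to 16.7% and the hepatocyte share 7.87 to 24.8%, on both sides of the intact range. Outside the classes, 12 of 12 interferon-stimulated genes rose, against 2.13% of all genes, with a median log2 fold change of 3.28. This comparison averages both Casp8-deficient genotypes and does not say which of them carries the rise. From the same livers, the study had reported Zbp1, Ifit1 and Isg15 of this list as higher in Casp8-/- Tnfr1-/- livers. It found them higher there than in Casp8-/- Mlkl-/- livers as well as in the intact ones. The counts rested on single livers: without the third Casp8-/- Tnfr1-/- liver 1040 genes were higher and 325 lower, and without any 1 of the 5 intact livers 77 to 190 were higher and 3 or 4 lower.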

How the data were processed

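RNA from 11 single E15.5 livers was sequenced. The labels name the TruSeq RNA v2 kit, HiSeq4000 and single-end reads, whereas the methods of the study name another kit and sequencer. Per the labels, reads were aligned to GRCm38 with GSNAP 2013-11-10. The counting tool and use of strand are not given in the sources used here. The counts were deposited by the authors as raw numbers of uniquely mapped reads per gene. RPKM, also computed and deposited by the authors, is that count per exonic base, scaled by the total of reads of its library.

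Levels between genes are RPKM. CPM used TMM factors over the 5 livers, and over all 11 where Casp8-deficient livers are compared. The biological CV is the root of the squared CV less 1 over the mean count, for genes with a mean count of at least 50. Genes were tested over 11 livers with edgeR 4.0.16 (R 4.3.3), quasi-likelihood, filterByExpr with a minimum count of 10, and Benjamini-Hochberg adjustment at 0.05, with no block. DESeq2 1.42.0, limma 3.58.1 and other alternatives are in the closing section. The fit and the CV were tested on simulated data. For the fit, these data had a smaller spread than the 11 livers, whose common biological CV by edgeR was 33.3%. They therefore do not measure the power of the fit here. GENCODE M21 matched 52403 of 52636 genes; of 407 list genes 406 matched. Counting error is all that depth describes, since reads carried no molecular identifiers, and nothing says that the livers of a group came from separate litters, so p-values measure the spread between these livers.

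Members and lists were chosen with earlier results of these data known. Named were the 30 highest genes, the 25 with the highest biological CV, all globins, Alb, Afp, Hbb-bs, Gata1 and Kit, up to 5 highest and the lowest member of a list, members at 0, the targeted genes, the 5 smallest p for Tnfr1-/- against WT, and up to 4 members per class by adjusted p for Casp8 deficiency. Others are said to be chosen after their values were seen, or illustrate a count. Some genes that meet these rules are not reported here.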

Additional observations from a re-analysis of the deposited data

Results flagged for a closer look

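Among 38 sets of 5 values, 2 held a liver far from the other 4, its gap to the nearest exceeding 0.71 of the range; chance alone flags about 1 in 20 sets. The macrophage and monocyte genes took 0.147977393% of the counted reads in the third WT liver, the lowest of the 5. The first Tnfr1-/- library held 35819339 counted reads, the most of the 5. Neither was tested further.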

How the results depend on the processing

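The Tnfr1-/- comparison gave 0 calls under every alternative but the fit of the 5 livers alone, which called 259 genes. Against Casp8-deficient livers, 368 genes were higher and 24 lower; DESeq2 called 1082 and 223, the replicate block 201 and 6, and leaving out 1 liver 77 to 1040 and 3 to 325. Without the first Casp8-/- Mlkl-/- liver 88 genes were lower, without the third 4, and without the second Casp8-/- Tnfr1-/- liver 11. Same-numbered livers correlated at -0.30 to 0.27 over 15 pairs, so the numbers were not taken to pair them. With the read total behind the RPKM as denominator, erythroid, hepatocyte, myeloid, endothelial and progenitor shares were 7.93, 7.99, 0.261, 0.0847 and 0.0931%; per length they were 21.8, 11.7, 0.566, 0.0575 and 0.0932%. Without globins, erythroid, endothelial and progenitor shares were 4.83, 0.111 and 0.122%. With a minimum mean count of 10, 180 genes exceeded a biological CV of 0.5 and 5 of the 25 most variable genes were shared; with 500, 2 exceeded it and 2 were shared. Without 1 liver, 13 to 27 genes exceeded 0.5 and 11 to 19 were shared. No result changed sign. The causes were not tested. Depth bears on the variable genes, since 11 of the 17 over 0.5 had a mean count of 50 to 100.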

Other observations

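Genes of cell state were described by level alone. Proliferation genes were high, with Mki67 at 295 ± 22.5 RPKM, Rrm2, a subunit of ribonucleotide reductase, at 251 ± 24.4 RPKM and Top2a at 159 ± 6.64 RPKM (SD, n = 5). Of the hypoxia list, the glucose transporter Slc2a1, which red cell precursors also carry, was at 197 ± 6.74 RPKM and Ldha at 135 ± 16.0 RPKM. Of the fasting list, the lipid droplet protein Plin2 led at 86.8 ± 6.26 RPKM and Fgf21 was listed at 0 in all 5 livers. Interferon-stimulated genes were low, with Isg15 at 3.90 ± 1.04 RPKM, and circadian genes were led by Tef at 5.63 ± 0.471 RPKM. The immediate early gene Egr1 was at 10.2, 8.18 and 14.2 RPKM in the WT livers and at 5.26 and 6.02 RPKM in the Tnfr1-/- livers, without overlap. By CPM, both Tnfr1-/- livers lay below all WT livers for 21.4% of 12916 genes. Egr1 was among the lower genes called when only the 5 livers entered the fit, and those calls moved with gene length.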
